A study of Mus musculus with 6 samples.

Results

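Interferon-stimulated genes are switched on when a cell senses an interferon. The 9 genes described here are Ifit1, Ifit3, Isg15, Irf7, Irf1, Stat2, Bst2, Ifitm3 and Ifi27. They were taken by their symbols as a list of well-known interferon targets, with earlier results of these data known. They are 9 of 24459 genes in the deposited gene table and hold 29 of 75457 isoforms in the isoform table. The TEPP-46 group is 3 libraries and the vehicle group 3 libraries of perihematomal brain tissue, the brain around a blood clot, on day 5. Both groups are mice with an intracerebral haemorrhage (ICH) that are labelled WT, and both were dosed on consecutive days after it, with TEPP-46, an activator of the pyruvate kinase M2, or with vehicle. Every animal thus carried the haemorrhage, and no brain without it is analysed here. The sources used here give no strain, age, sex or dose. The labels do not state whether replicates are different animals, and p-values cover only the variation among these libraries, which may be technical. Libraries are named by their columns, T1, T2 and T3 for TEPP-46 and C1, C2 and C4 for vehicle.

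Type I interferons bind a receptor built from Ifnar1 and Ifnar2, whose kinases Jak1 and Tyk2 phosphorylate Stat2. Stat2 and Irf9 are parts of a complex that binds the interferon-stimulated response element (ISRE). Interferon gamma has its own receptor, and many of its target genes carry the gamma-activated site (GAS). In the brain, microglia, astrocytes, endothelial cells and infiltrating macrophages can all carry this programme.

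The promoters of the members are shown because most of them share a response element. Promoters from RefSeq on GRCm38.p6, reaching from 250 bases before to 50 bases after each start, were found for 8 of the 9 members. An ISRE core was searched as GAAA, any 2 bases and GAAA again, and a GAS as TTCNNNGAA, on both strands. An ISRE core stood in the promoters of 6 of these 8 members, against 3.44% of all 32851 promoters and 3.99% of 27025 genes. A GAS stood in 3 of the 8, against 8.30% of promoters and 9.55% of genes. Capitals mark the ISRE core in the first 5 windows of 130 bases, and the GAS in that of Irf1.
Ifit1 (chr19:34640729-34640858, plus strand): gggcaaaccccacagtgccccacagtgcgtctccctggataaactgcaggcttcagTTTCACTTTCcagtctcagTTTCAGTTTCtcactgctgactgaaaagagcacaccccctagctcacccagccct
Ifit3 (chr19:34583369-34583498, plus strand): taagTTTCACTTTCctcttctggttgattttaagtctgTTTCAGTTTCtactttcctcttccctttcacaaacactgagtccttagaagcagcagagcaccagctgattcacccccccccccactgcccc
Isg15 (chr4:156200849-156200978, minus strand): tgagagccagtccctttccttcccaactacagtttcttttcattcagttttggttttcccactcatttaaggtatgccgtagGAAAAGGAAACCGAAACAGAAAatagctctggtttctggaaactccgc
Bst2 (chr8:71537503-71537632, minus strand): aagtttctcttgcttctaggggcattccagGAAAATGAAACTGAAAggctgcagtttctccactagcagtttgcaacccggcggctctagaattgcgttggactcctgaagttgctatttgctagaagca
Stat2 (chr10:128270248-128270377, plus strand): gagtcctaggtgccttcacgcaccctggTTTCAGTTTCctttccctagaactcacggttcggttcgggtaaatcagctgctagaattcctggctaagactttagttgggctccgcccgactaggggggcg
Irf1 (chr11:53769854-53769983, plus strand): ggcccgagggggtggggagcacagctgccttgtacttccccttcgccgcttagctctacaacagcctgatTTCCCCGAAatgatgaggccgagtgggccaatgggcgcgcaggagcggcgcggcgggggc

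Ifit1 held 2 separate ISRE cores, at positions -104 and -85 relative to the start. Ifit3 held 2, at -156 and -122. Isg15 held 3 that overlap one another, at -78, -72 and -66. Bst2 held 2 that overlap, at -130 and -124, with a GAS whose last bases overlap them. Stat2 held 1, at -222. Ifitm3, not printed, held 2 at 2 and 19, and a GAS that overlaps the second of them. Irf1 has 2 promoters in the table, and the GAS is in the first, at -90. Irf7 showed neither motif in this window. A match is a run of letters and does not show that a factor binds there.

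The 6 libraries held between 5286426 and 6025064 gene counts, and no pair of replicates agreed within sampling noise. Markers of neurons (Snap25) and oligodendrocytes (Mbp) were present in each library, as the brain label requires. Ttr, a choroid plexus gene, reached 1778 CPM (the count scaled by the library's total) or more in T1, T2, T3 and C1, but 13.6 CPM or less in C2 and C4. Microglia markers summed to 561, 700 and 736 CPM in TEPP-46 and to 535, 1056 and 351 CPM in vehicle, with C2 highest and C4 lowest.

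At day 5 no member differed between TEPP-46 and vehicle mice beyond the spread between libraries. By edgeR's quasi-likelihood test none of the 9 had an adjusted p under 0.05, and the same held for all 14441 tested genes (0%). At an unadjusted p under 0.05 the members gave 0 of 9, against 5.93% of all tested genes. The groups overlapped in CPM for all 9, while 11.4% of all tested genes did not overlap. DESeq2 called 88 of 20554 genes (0.428%) and no member, and the authors' deposited table calls 225 of 15896 genes (1.42%) and no member. The rule behind the authors' calls was not examined here, so their count may be at another threshold. In 6 members the log2 fold change was above 0, with a median over the 9 of 0.04, beside 0.01 over all tested genes. In bulk tissue, fewer cells of a type and less RNA per cell cannot be told apart.

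**Figure D1:**
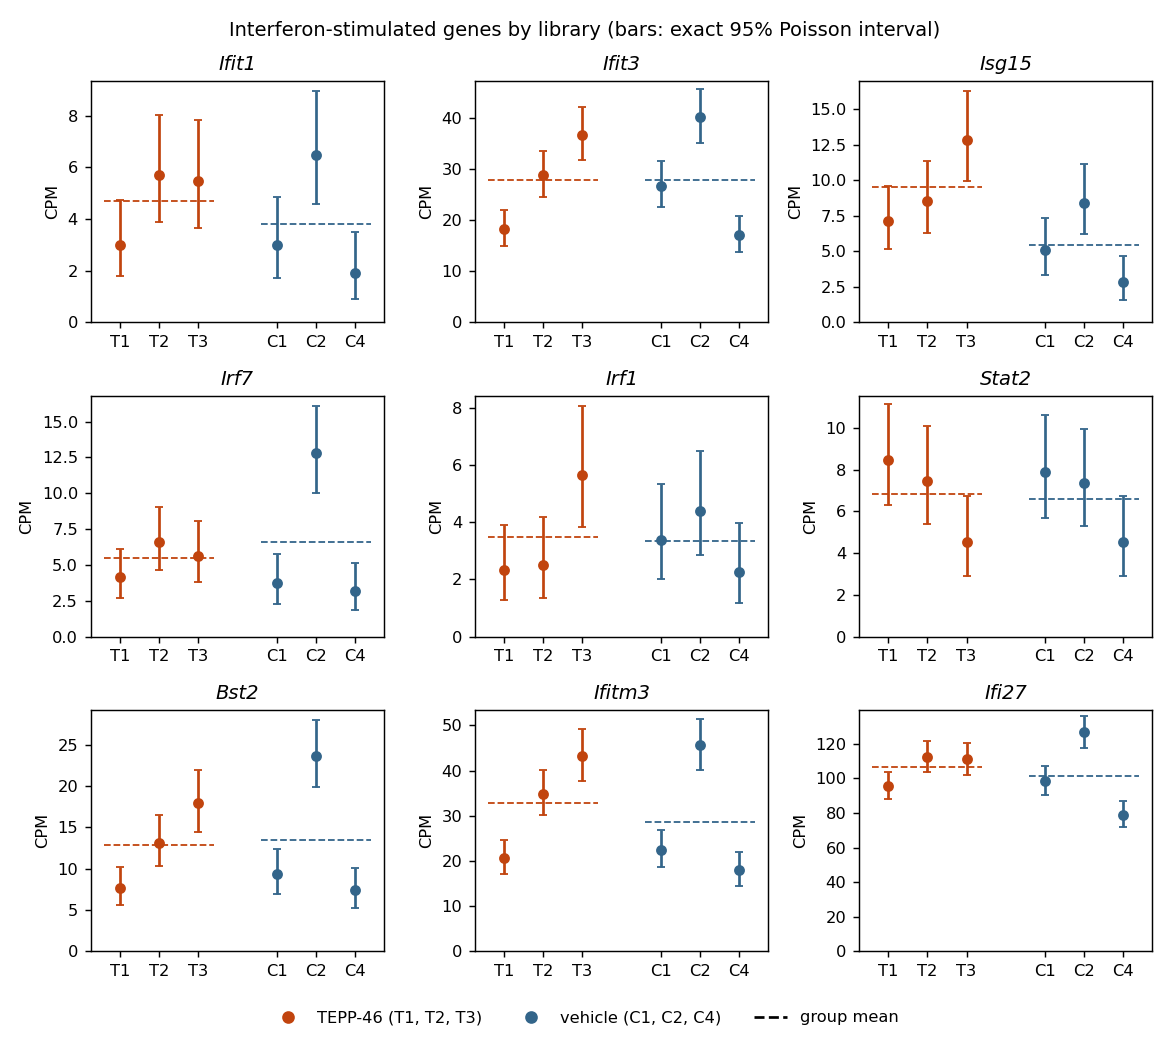
CPM of each of the 9 interferon-stimulated genes in each library, TEPP-46 on the left and vehicle on the right of each panel; points are libraries with exact 95% Poisson intervals, dashed lines group means. Vehicle library C2 is the highest of the 6 in 6 genes and C4 the lowest in 8.

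Isg15 encodes a ubiquitin-like protein that is joined to other proteins in interferon-treated cells (chr4:156199424-156200818, minus strand, GRCm38, as for all gene positions here, from GENCODE M21). It had 7.14, 8.54 and 12.8 CPM in T1, T2 and T3, against 5.06, 8.42 and 2.84 CPM in C1, C2 and C4. C2 lay above T1, so the groups overlapped, while the mean was 9.50 ± 2.96 CPM in TEPP-46 and 5.44 ± 2.81 CPM in vehicle (SD, n = 3 each). The log2 fold change was 0.78 (SE 0.40, 95% interval -0.12 to 1.67), the highest of the 9, with an edgeR p of 0.0820 before and 0.897 after adjustment. An exact two-sided permutation test of the CPM gave p = 0.2, where the smallest p possible with 3 against 3 is 0.1. These levels rest on 159 counts in the TEPP-46 libraries and 90 in the vehicle libraries. In the authors' deposited table its DESeq2 p is 0.0848 and its log2 fold change 0.40. DESeq2 run here on the same counts gave a log2 fold change of 0.77 at a nearly equal p of 0.0858. Why the authors' fold change is smaller was not tested.

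Ifit1, whose protein binds viral RNA and restrains its translation, and Ifit3 lie in the same gene cluster on chromosome 19. Ifit1 (chr19:34640871-34650009, plus strand) was at 2.99, 5.69 and 5.46 CPM in TEPP-46, against 2.996, 6.49 and 1.89 CPM in vehicle. The highest and the lowest value both belonged to vehicle. The log2 fold change was 0.28 (SE 0.47, edgeR adjusted p = 0.997). Ifit3 (chr19:34583531-34588731, plus strand) was at 18.3, 28.8 and 36.7 CPM in TEPP-46, against 26.8, 40.2 and 17.0 CPM in vehicle. Its means of 27.9 ± 9.27 CPM in TEPP-46 and 28.0 ± 11.6 CPM in vehicle (SD, n = 3 each) were almost the same, and the log2 fold change was -0.02 (95% interval -0.80 to 0.75). Of the 21-base words of the Ifit3 transcript, 69.0% are also in Ifit3b, a close copy with 120 counts in all, so the level of Ifit3 is uncertain. With the counts of both added, the log2 fold change was 0.03. Other members shared fewer of their 21-base words with another gene. These were 17.4% for Isg15 with AC151275.1, 11.2% for Ifitm3 with AC121299.1 and 10.7% for Ifit1 with Ifit1bl2. AC151275.1 and AC121299.1 are not among the genes counted, and what this sharing does to the levels was not tested.

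Bst2 encodes tetherin, which holds budding viruses at the cell surface, and Ifitm3 a membrane protein that blocks virus entry from endosomes. Bst2 (chr8:71534255-71537456, minus strand) was at 7.63, 13.2 and 17.9 CPM in TEPP-46, against 9.36, 23.7 and 7.38 CPM in vehicle. Ifitm3 (chr7:141009586-141010770, minus strand) was at 20.6, 34.9 and 43.2 CPM in TEPP-46, against 22.5, 45.6 and 18.0 CPM in vehicle. In both genes C2 was highest, C4 lowest, and the TEPP-46 libraries lay between them with T3 above T2 and T1. The log2 fold changes were -0.09 (SE 0.47) for Bst2 and 0.17 (SE 0.38) for Ifitm3, and edgeR's adjusted p was 0.997 for each. Ifi27 encodes a small mitochondrial membrane protein (chr12:103434211-103440239, plus strand) and had the most counts of the 9, 1798 over the TEPP-46 libraries and 1666 over the vehicle libraries. It was at 95.8, 112 and 111 CPM in TEPP-46, against 98.5, 127 and 79.1 CPM in vehicle. The interval of its log2 fold change of 0.05 was the narrowest of the 9, from -0.35 to 0.46.

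Irf7, Irf1 and Stat2 are the transcription factors of the list. Irf7 (chr7:141262706-141266481, minus strand), which drives interferon alpha genes, was at 4.15, 6.58 and 5.65 CPM in TEPP-46, against 3.75, 12.8 and 3.22 CPM in vehicle. C2 stood far above every other library, and the mean was 5.46 ± 1.23 CPM in TEPP-46 and 6.59 ± 5.39 CPM in vehicle (SD, n = 3 each). The log2 fold change of Irf7 was -0.30 (SE 0.52, edgeR adjusted p = 0.997), and 0.64 without C2. Irf1 (chr11:53770014-53778374, plus strand), an early activator that interferon gamma induces, was at 2.32, 2.49 and 5.65 CPM in TEPP-46, against 3.37, 4.39 and 2.27 CPM in vehicle, with 58 counts over the TEPP-46 libraries and 55 over the vehicle libraries. T3 was its highest library, and the log2 fold change was 0.03 (95% interval -0.97 to 1.03). Stat2 (chr10:128270559-128292849, plus strand), the part of the ISRE-binding complex that is activated at the receptor, was at 8.46, 7.47 and 4.52 CPM in TEPP-46, against 7.87, 7.37 and 4.54 CPM in vehicle. For Stat2, T1 was the highest library and T3 the lowest, and its log2 fold change was 0.04 (95% interval -0.70 to 0.78).

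**Figure D2:**
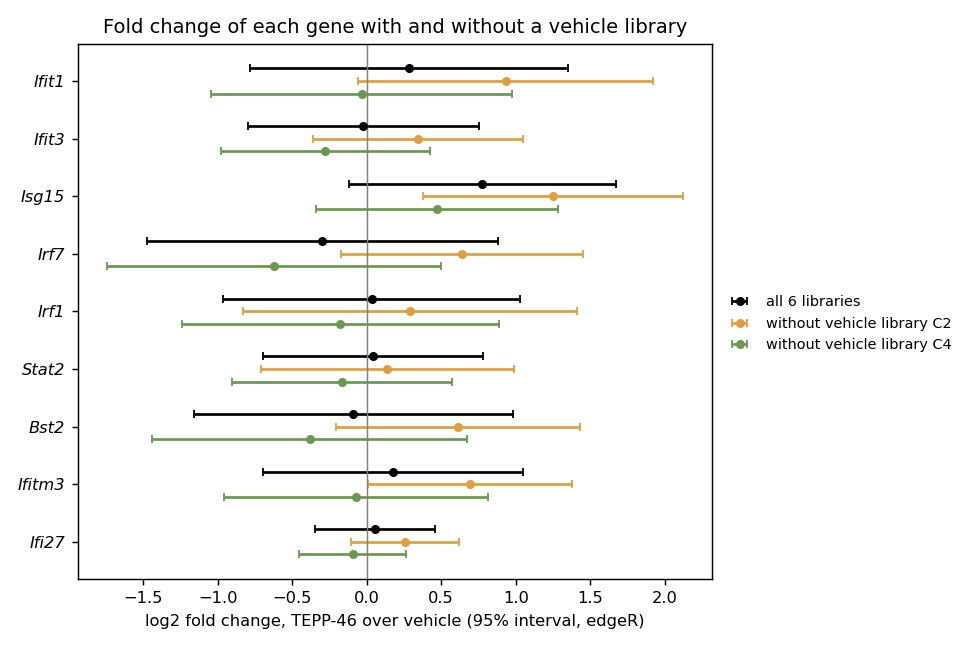
Log2 fold change of TEPP-46 over vehicle for each of the 9 genes from edgeR, with 95% intervals. Each gene is shown with all 6 libraries, without vehicle library C2 and without vehicle library C4. With all 6 libraries every interval includes 0, and Isg15 lies highest at 0.78. Without C2 the intervals of Isg15 (0.38 to 2.13) and Ifitm3 (0.008 to 1.38) lie above 0, and neither gene passed adjustment. Without C4 every interval includes 0.

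The vehicle libraries lay far apart in these genes. C2 was the highest and C4 the lowest of the 3 vehicle libraries in 8 of the 9 members, against 18.7% of all tested genes. Over all 6 libraries the same pair took the highest and lowest place in 6 of 9, against 5.83% of all tested genes. Within vehicle the highest library was 3.98 times the lowest for Irf7, 3.43 times for Ifit1, 3.21 times for Bst2 and 1.60 times for Ifi27. In TEPP-46, T1 was the lowest library in 8 of 9 members, against 34.3% of all tested genes. The summed CPM of the 9 was 167, 220 and 243 in T1, T2 and T3, against 180, 276 and 136 in C1, C2 and C4. The members share the same 6 libraries, and these counts are a description without a test.

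The direction of the list depended on single libraries. Without C2 all 9 members had a log2 fold change above 0, with a median of 0.61, and 2 of 9 had an unadjusted edgeR p under 0.05, against 10.2% of all genes tested in that fit. By edgeR these were Isg15 (log2 fold change 1.25, edgeR adjusted p = 0.283) and Ifitm3 (log2 fold change 0.69, edgeR adjusted p = 0.486), and neither passed the adjustment, which 43 of 14752 genes did (0.291%). Without C4, only Isg15 stayed above 0, at 0.47, the median was -0.16, and 0 of 9 had an unadjusted p under 0.05 (4.21% of all). Without T3, 4 of 9 lay above 0 and the median was -0.06. No member had an unadjusted p under 0.05 without C1 (6.91% of all), T1 (3.95%), T2 (4.85%) or T3 (5.53%). The share of all tested genes above 0 moved less, at 51.7% without C2, 50.8% without C4 and 51.1% with all libraries.

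Summed markers of microglia, macrophages and blood moved with the members. Monocyte-derived and border macrophage markers summed to 88.8, 195 and 284 CPM in T1, T2 and T3, against 65.7, 562 and 34.0 CPM in C1, C2 and C4. Most of this sum was Lyz2, at 502 CPM in C2 and 22.5 CPM in C4. The other markers of that list were far lower and did not share 1 order. Pf4 and F13a1 were highest in C2, Ccr2 and Cd163 in T2, Ms4a7 in T3 and Mrc1 in C4. Spp1, a gene of activated microglia and macrophages, was at 362, 1499 and 2220 CPM in TEPP-46, against 176, 3734 and 108 CPM in vehicle. Red blood cell markers summed to 557, 644 and 745 CPM in TEPP-46, against 455, 1051 and 319 CPM in vehicle. Spp1 and the macrophage and red blood cell sums, like the sums of the microglia markers and of the members, were highest in C2 and lowest in C4. Other cell types set C2 or C4 apart too. Gfap, an astrocyte gene, was at 158, 247 and 348 CPM in TEPP-46, against 175, 417 and 59.4 CPM in vehicle, the same order of C2 and C4. The astrocyte markers together summed to 2242, 2447 and 2141 CPM in TEPP-46, against 1900, 2217 and 1621 CPM in vehicle. That sum was lowest in C4 but highest in T2, not in C2. Oligodendrocyte markers summed to 14582, 12477 and 13571 CPM in TEPP-46, against 12931, 12808 and 5123 CPM in vehicle, so C4 lay far below the rest. Neuron markers ran otherwise, at 3372, 2671 and 2333 CPM in TEPP-46 and 2846, 2141 and 2801 CPM in vehicle. Markers of neutrophils summed to at most 4.15 CPM in any library, with Ly6g and Retnlg at 0 counts in all 6, and markers of T and NK cells to at most 2.31 CPM, with Ncr1 at 0. The part of cell make-up in the levels of the members was not tested.

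**Figure D3:**
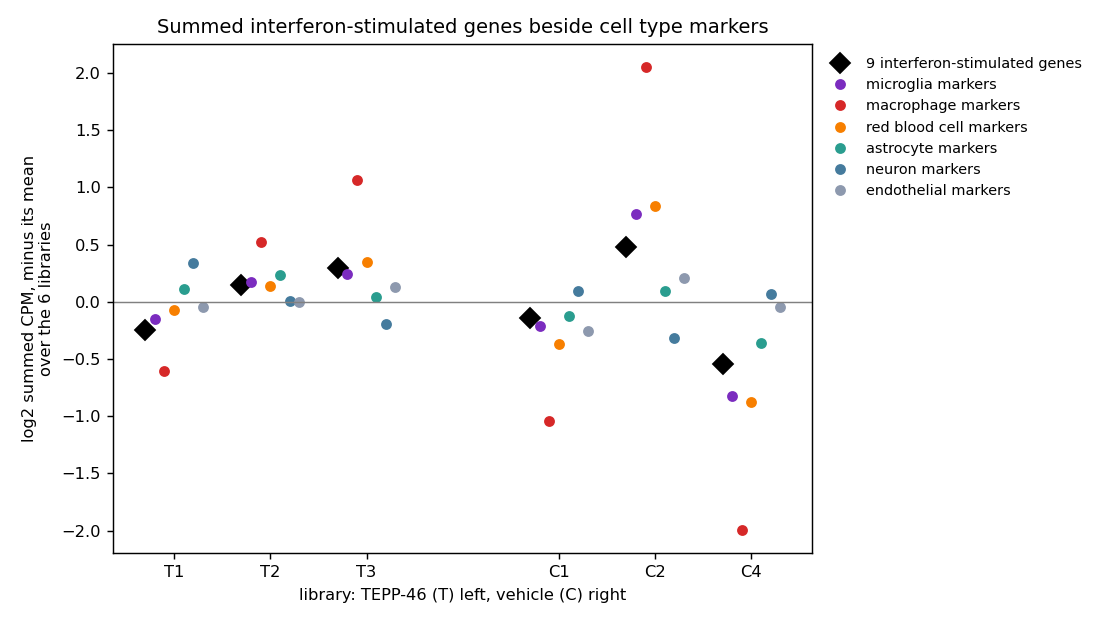
Summed CPM of the 9 interferon-stimulated genes and of 6 marker lists in each library, on a log2 scale relative to the mean of each over the 6 libraries, TEPP-46 left and vehicle right. The members, microglia, macrophage and red blood cell sums are highest in C2 and lowest in C4.

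The 5 genes whose levels were most like the mean standardised log2(CPM + 1) of the members over the 6 libraries were Laptm5 (Pearson r = 0.997), Rpl22 (0.996), Epb41l2 (0.992), Tyrobp (0.992) and Ctsh (0.991), out of 6110 genes with a mean of at least 20 CPM. These r values are descriptions over 6 libraries that share the order above. Tyrobp, the adaptor of Trem2 and other receptors of microglia, was at 187, 327 and 410 CPM in TEPP-46, against 179, 587 and 109 CPM in vehicle. Laptm5, a lysosomal gene of blood cells and microglia, was at 23.1, 36.6 and 39.6 CPM in TEPP-46, against 25.3, 55.8 and 14.9 CPM in vehicle. Rpl22 was at 485, 542 and 582 CPM in TEPP-46, against 490, 631 and 428 CPM in vehicle. Epb41l2 was at 67.7, 87.0 and 90.3 CPM in TEPP-46, against 67.0, 112 and 51.3 CPM in vehicle. Ctsh was at 19.3, 33.4 and 45.8 CPM in TEPP-46, against 20.2, 53.2 and 12.1 CPM in vehicle. Which cells held these 5 transcripts was not tested. When each member was divided by the sum of microglia markers, a ratio chosen after its values were seen and not tested, Isg15 was the one member whose groups did not overlap. It stood at 12.7, 12.2 and 17.4 per 1000 CPM of markers in TEPP-46, against 9.45, 7.97 and 8.08 in vehicle. By the same ratio 0.762% of all tested genes lay higher in TEPP-46 without overlap and 1.05% lower.

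Around the members, the interferon pathway was measured from ligand to target. None of 11 interferon ligand genes had a count in any library, which allows up to 0.498 to 0.567 CPM in a library (3 counts). Of 6 receptor genes 5 were tested, and 4 of these lay above 0, with a median log2 fold change of 0.15. Ifnar2, a type I receptor chain, averaged 25.8 ± 4.08 CPM in TEPP-46 and 22.9 ± 7.48 CPM in vehicle. Ifngr2, a chain of the interferon gamma receptor, averaged 18.6 ± 6.49 CPM in TEPP-46 and 22.6 ± 1.23 CPM in vehicle (SD, n = 3 each). Of nucleic acid sensors and their adaptors, all 8 that were tested had a log2 fold change above 0, with a median of 0.29 and no call, and C4 was the lowest library in 7 of these 8. Of the 5 that were too low to test, 3 had a lower mean CPM in TEPP-46, among them Tmem173 with 19 counts over the TEPP-46 libraries and 30 over the vehicle libraries, named after its values were seen. Mavs, the mitochondrial adaptor of the RNA sensors, averaged 7.997 ± 1.79 CPM in TEPP-46 and 6.53 ± 5.25 CPM in vehicle, and Tlr3, an endosomal RNA sensor, 6.58 ± 1.43 CPM in TEPP-46 and 5.72 ± 1.53 CPM in vehicle. Of 10 tested kinases and transcription factors 5 lay above 0, with a median of 0.00. Jak1 averaged 122 ± 8.31 CPM in TEPP-46 and 116 ± 17.1 CPM in vehicle, and Tbk1, the kinase that activates interferon regulatory factors, 35.7 ± 2.32 CPM in TEPP-46 and 31.4 ± 4.17 CPM in vehicle.

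Of 31 further genes induced by type I interferon 19 lay above 0 (median 0.07), of 17 induced by interferon gamma 12 (median 0.07), and of 7 negative regulators 4 (median 0.08). Ly6e, the induced gene with the most counts, averaged 771 ± 48.4 CPM in TEPP-46 and 780 ± 78.8 CPM in vehicle. Slfn5 averaged 43.7 ± 2.34 CPM in TEPP-46 and 40.2 ± 5.38 CPM in vehicle. Wars, a tRNA synthetase that interferon gamma induces, averaged 108 ± 13.7 CPM in TEPP-46 and 101 ± 10.9 CPM in vehicle, and Psme1, of the proteasome activator, 91.8 ± 14.1 CPM in TEPP-46 and 94.9 ± 17.5 CPM in vehicle. Ptpn2, a phosphatase that dampens Jak kinases, averaged 26.5 ± 3.58 CPM in TEPP-46 and 27.1 ± 3.24 CPM in vehicle. Adar, an RNA editor whose product keeps cellular RNA from the sensors, was at 58.1, 69.2 and 62.4 CPM in TEPP-46, against 49.1, 47.0 and 33.5 CPM in vehicle. Its groups did not overlap, and the log2 fold change was 0.54 (SE 0.18), but the edgeR adjusted p was 0.657.

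Over all 78 tested genes of the 7 lists, 52 had a log2 fold change above 0, where 51.1% of all tested genes did, the median was 0.10, and edgeR called none. At an unadjusted p under 0.05 there were 2 (2.56%, against 5.93% of all tested genes), Adar and Sp100. Groups did not overlap in 4 (5.13%, against 11.4% of all), which were these 2 and Gbp2, higher in TEPP-46, and Ifitm10, lower in TEPP-46. Sp100, a nuclear body gene, had 3.49, 4.27 and 5.28 CPM in TEPP-46, against 0.562, 1.93 and 2.27 CPM in vehicle, with an edgeR adjusted p of 0.657. Sp100 lies in a region of the mouse genome with many copies, so its counts are uncertain, though its shared sequence was not examined here. Gbp2, a guanylate-binding protein gene, had 2.82, 3.56 and 5.09 CPM in TEPP-46, against 2.06, 1.93 and 2.46 CPM in vehicle. Sp100, Gbp2 and Ifitm10 were chosen after their values were seen. C2 was the highest and C4 the lowest of the 6 libraries in 20 of the 78 (25.6%, against 5.83% of all tested genes). An ISRE core stood in the promoters of 15 of 37 genes of the type I list (40.5%) and 11 of 18 of the gamma list (61.1%), against 3.99% of all genes. It also stood in 4 of 11 ligand genes (36.4%) and 3 of 9 sensors and adaptors (33.3%). The other lists had 1 of 6 negative regulators (16.7%), 1 of 10 kinases and transcription factors (10%) and 0 of 5 receptors.

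**Figure D4:**
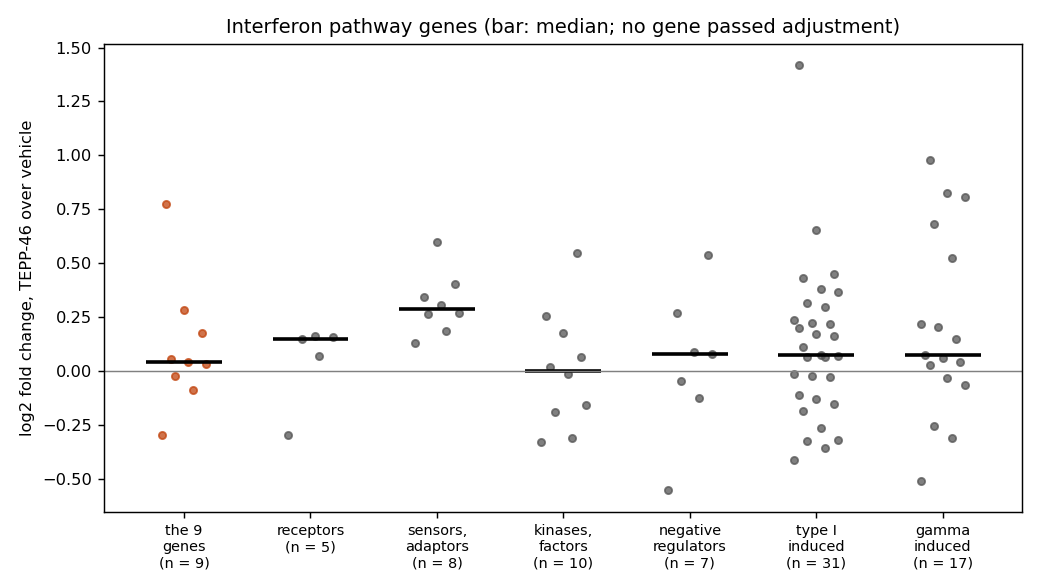
Log2 fold change of TEPP-46 over vehicle for the 9 genes and for the tested genes of 6 interferon pathway lists; points are genes, bars medians. The medians lie between 0.00 and 0.29, and no gene passed adjustment.

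At the isoform level, 28 of the 29 member isoforms had a count, and 16 were tested. None was called by edgeR, as for all 33854 tested isoforms (0%), and none had an unadjusted p under 0.05, against 5.77% of all. The groups did not overlap in 2 of 16 (12.5%), near the 10.9% of all tested isoforms, and both were higher in TEPP-46, as were 5.73% of all. DESeq2 called none of the 12 for which it gave an adjusted p. Ifit1, Isg15, Bst2 and Ifitm3 each had 1 isoform. In Ifit3 the annotated Ifit3-201 held 59.5 ± 2.96% of counts in TEPP-46 libraries and 59.2 ± 4.30% in vehicle libraries (SD, n = 3 each), and a new isoform held the rest. Irf7-201 led in Irf7, with 53.2 ± 11.4% in TEPP-46 libraries and 50.6 ± 7.28% in vehicle libraries. Irf1-201 held 47.0 ± 17.6% of Irf1 counts in TEPP-46 libraries and 44.8 ± 5.01% in vehicle libraries, and Irf1-202 held 44.0 ± 8.86% in TEPP-46 libraries and 41.0 ± 7.36% in vehicle libraries. The isoforms Stat2-201 and Stat2-202 differ by 3 bases at the start of exon 15, and their counts over all libraries, 112 and 113, differed by 1, so they are not told apart here.

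Ifi27 had 8 isoforms, and its 2 isoforms with non-overlapping levels were both higher in TEPP-46. Ifi27-201 was at 13.1, 12.5 and 13.2 CPM in TEPP-46, against 10.3, 12.3 and 7.76 CPM in vehicle, with a log2 fold change of 0.32. Ifi27-202 was at 5.15, 6.23 and 4.52 CPM in TEPP-46, against 2.996, 4.39 and 3.03 CPM in vehicle, with a log2 fold change of 0.57 (SE 0.29) and an edgeR adjusted p of 0.933. Both lack a coding exon of 135 bases (45 codons) that Ifi27-204 and Ifi27-205 carry. The exon is printed because it is what separates these isoforms, in the GENCODE M21 transcript on GRCm38.
Ifi27 exon (chr12:103437390-103437524, plus strand): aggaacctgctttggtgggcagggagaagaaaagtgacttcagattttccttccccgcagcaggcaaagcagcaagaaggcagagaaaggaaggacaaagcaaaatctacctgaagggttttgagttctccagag
Of the counts of the 5 annotated isoforms with at least 50 counts, Ifi27-201 to Ifi27-205, the exon was included in 64.5, 66.8 and 69.5% in T1, T2 and T3, against 73.0, 73.5 and 73.9% in C1, C2 and C4. The groups did not overlap, at means of 66.9 ± 2.49% in TEPP-46 libraries and 73.5 ± 0.464% in vehicle libraries (SD, n = 3 each). The isoforms were grouped after their values were seen, so this difference is a description with no test. The exact binomial 95% interval of every TEPP-46 library overlapped that of every vehicle library. Even T1 (59.3 to 69.5%) and C2 (69.1 to 77.7%) overlapped, and these intervals cover counting error only. Another skipped exon, of 30 bases, was included in 67.0, 64.8 and 68.4% in TEPP-46, against 70.1, 69.3 and 64.8% in vehicle, where the groups overlapped.

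As shares of all Ifi27 counts, Ifi27-205, the leading isoform, held 28.5 ± 0.858% in TEPP-46 libraries and 30.6 ± 1.01% in vehicle libraries, and the new isoform ONT.2799.4 held 26.3 ± 0.473% in TEPP-46 libraries and 28.8 ± 0.460% in vehicle libraries. Ifi27-201 held 12.2 ± 1.34% in TEPP-46 libraries and 9.99 ± 0.411% in vehicle libraries, and Ifi27-202 held 5.00 ± 0.801% in TEPP-46 libraries and 3.44 ± 0.393% in vehicle libraries (SD, n = 3 each). These are the 4 of 8 Ifi27 shares whose groups did not overlap, each with the smallest exact permutation p that 3 against 3 allows, 0.1. The other 4 overlapped, with exact permutation p between 0.2 and 0.8, and shares of 1 gene depend on each other. Over all genes with more than 1 isoform, the shares of 11.6% of tested isoforms did not overlap. The test of isoform usage over all genes, diffSpliceDGE of edgeR, gave Ifi27 a p of 0.740 and an adjusted p of 1.00, Ifit3 a p of 0.941 and Stat2 a p of 0.9796. It called 1 of 7639 genes (0.0131%), which was no member. New isoforms held 38.3 to 40.9% of Ifi27 counts in a library, and whether they carry the exon is not known here.

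**Figure D5:**
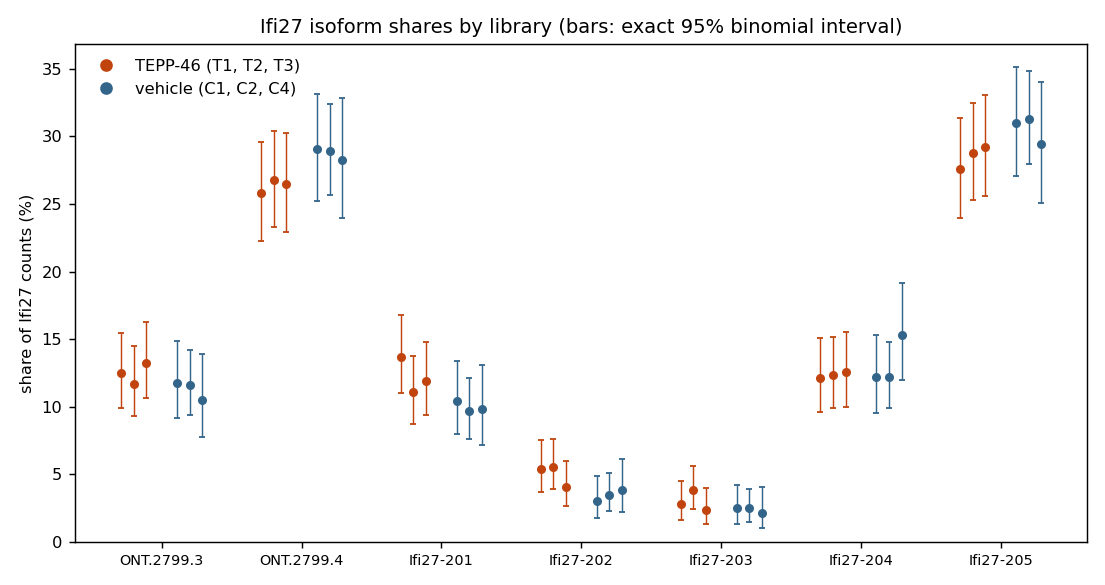
Shares of Ifi27 counts held by its isoforms in each library, TEPP-46 left and vehicle right of each pair. Points are libraries with exact 95% binomial intervals. Ifi27-207, with 7 counts over all libraries, is not shown. Ifi27-201 and Ifi27-202 lie higher and Ifi27-205 and ONT.2799.4 lower in the 3 TEPP-46 libraries.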

How the data were processed

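RNA of 6 libraries, 3 TEPP-46 and 3 vehicle, was read with a nanopore cDNA-PCR kit, per the labels' protocols. The authors deposited raw counts per gene and per isoform, without UMIs, and their own p-values, false discovery rates and log2 fold changes, used here only where named. The submitters' processing notes name GRCm38 and DESeq 1.10.1, and no aligner or counter is named in the sources used here. Column letters tie columns to groups but the numbers match no sample, so libraries are unordered replicates, and 12 other columns of values per library were not used.

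Here CPM is the count scaled by its table's total for that library. Genes and isoforms were fitted over the whole table with edgeR 4.0.16 (R 4.3.3; filterByExpr, TMM, quasi-likelihood F test, robust, group as the single term), Benjamini-Hochberg adjusted, and called under 0.05. DESeq2 1.42.0 was an alternative. Isoform usage was tested with diffSpliceDGE. Single shares and levels were compared by exact permutation. Annotation was GENCODE M21 and RefSeq.

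The members, lists and tests were chosen with earlier results of these data known. Named were all members, called genes of each list or otherwise its 2 genes with the most CPM, and the 5 most alike genes. Some genes of the lists are not reported here by name.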

Additional observations from a re-analysis of the deposited data

How the results depend on the processing

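Over scaling by RLE, library totals alone, no low-count filter, DESeq2 and leaving out each library, no member was called. Of the alternative log2 fold changes of members and their isoforms, 208 kept their direction and 43 did not. All 63 alternative CPM differences and 33 leading isoform shares moved by less than 1 SD, pooled over the groups. Leaving out 1 of the 3 libraries of a group cannot move a difference by as much as this SD. The leave-outs among these settings thus could not fail and say nothing about stability. The summed CPM of the members differed by 12.8 (TEPP-46 minus vehicle), less than the SD of 57.4; leaving out 1 library moved this to 51.9 without C2, -17.8 without C4 and -3.66 without T3. DESeq2 called 88 genes and 158 isoforms, and edgeR without the filter 165 isoforms, against 0 in each case; usage without the filter called 0 genes. Leaving out 1 library called 0 to 43 genes, 0 to 178 isoforms and 0 to 1 genes by usage, the highest counts of genes and isoforms being without C2. Outside leave-outs the sign changed for Ifit3 with Ifit3b added (0.035, chosen after seeing the data), ONT.6159.3 by library totals alone (0.024), and Stat2-201 without the filter (-0.014) and by DESeq2 (-0.0081); the cause was not tested.

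Leaving out each library in turn gave log2 fold changes of -0.035 to 0.93 for Ifit1, -0.28 to 0.34 for Ifit3, -0.62 to 0.64 for Irf7, -0.48 to 0.29 for Irf1, -0.16 to 0.26 for Stat2, -0.39 to 0.61 for Bst2, -0.072 to 0.69 for Ifitm3 and -0.10 to 0.26 for Ifi27. For isoforms it gave -0.062 to 0.91 for Ifit1-201, -0.23 to 0.27 for ONT.6159.3, -0.36 to 0.35 for Ifit3-201, -0.51 to 0.70 for Irf7-201, -0.19 to 0.22 for Stat2-201, -0.17 to 0.25 for Stat2-202, -0.43 to 0.59 for Bst2-201, -0.10 to 0.67 for Ifitm3-201, -0.027 to 0.38 for ONT.2799.3, -0.25 to 0.11 for ONT.2799.4, -0.13 to 0.10 for Ifi27-204 and -0.24 to 0.15 for Ifi27-205. Those that kept their sign were Isg15 (0.47 to 1.25), Isg15-201 (0.45 to 1.23), Ifi27-201 (0.16 to 0.49, lowest without C4), Ifi27-202 (0.43 to 0.78) and Ifi27-203 (0.071 to 0.59, lowest without T2). The highest value came without C2, except for Stat2 and its isoforms, where it came without T3. No paired analysis was possible because the column numbers match no numbered sample.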
